A study of Mus musculus with 6 samples.

Results

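The 10 genes described here encode transcription factors that guide myeloid progenitors towards the granulocyte fate and through its stages: Cebpa, Cebpb, Cebpd, Cebpe, Gfi1, Spi1, Runx1, Myb, Klf4 and Myc. They were chosen by name from the 54532 genes measured, and all 10 passed the minimum level for testing, as did 14807 genes in all. The libraries were made from neutrophils of C57BL/6J mice, isolated from bone marrow with anti-Ly-6G magnetic beads and challenged in vitro with live Candida albicans for 6 h. Of these, 3 came from wild-type (WT) cells and 3 from cells of progranulin knockout (PGRN KO) mice, which lack the secreted growth factor and lysosomal protein encoded by Grn. The titles call the WT libraries controls, but the treatment label gives the fungal challenge for all 6, so no library shows either genotype without the fungus. The knockout was not limited to neutrophils, and the study bought its PGRN KO and WT mice from different suppliers, so genotype and origin of the mice cannot be told apart. The study matched mice for sex and age, but the age of the mice that gave these cells and the number of mice per culture are not stated separately, and p-values therefore measure only the spread between these samples, which may be technical.

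Granulocyte differentiation is governed by a small set of factors that act in sequence. In the textbook account, Runx1, Myb and Myc serve proliferating stem and progenitor cells, Spi1 (PU.1) and Cebpa open the myeloid programme, Gfi1 and Cebpe carry cells through the promyelocyte and myelocyte stages, and Cebpb and Cebpd act in mature and stimulated cells. Klf4 favours the monocyte branch, and Cebpb can replace Cebpa when infection or cytokines speed up granulocyte production.

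PGRN KO libraries held less Cebpa and more Myb, Gfi1 and Cebpd mRNA than WT libraries. The calls of Cebpa and Myb held under all 16 alternatives, which changed the processing or left out a library. That of Cebpd held under 8 and that of Gfi1 under 7, and both were lost without any 1 of the 6 libraries. The mean level of Cebpa was 1.38-fold higher in WT, and that of Myb was 1.48-fold higher in PGRN KO. Cebpb, Cebpe, Spi1, Runx1, Klf4 and Myc did not pass the test. The differences were small beside the whole span of the genes, whose mean levels in WT ran from 0.246 FPKM for Myc to 1578 FPKM for Cebpb. Klf4 and Myc, the lowest, lay close together and changed places between the genotypes. FPKM, the fragment number scaled to gene length and library size, is a level per length, so that it can be compared between genes.

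The promoters of 3 of these genes are shown because Cebpa and Myb were the genes called under every alternative way of processing and Cebpb was the most abundant factor. Each line gives the 250 bases before the start site in RefSeq on GRCm38.p6, read 5′ to 3′ on the strand of the gene, and capitals mark the letters of the motifs found. They lie at chr7:35119043-35119292 (plus strand) for Cebpa, at chr10:21160985-21161234 (minus strand) for Myb and at chr2:167688665-167688914 (plus strand) for Cebpb. Of the 10 genes, 6 matched an entry of the promoter table (Cebpa, Cebpb, Gfi1, Runx1, Myb and Klf4), and Cebpd, Cebpe, Spi1 and Myc did not.
Cebpa: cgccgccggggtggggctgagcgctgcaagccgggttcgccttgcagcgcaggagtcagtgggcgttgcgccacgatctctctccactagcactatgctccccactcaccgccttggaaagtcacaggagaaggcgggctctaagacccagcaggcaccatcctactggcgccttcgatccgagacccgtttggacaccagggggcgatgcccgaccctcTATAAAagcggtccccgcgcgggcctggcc
Myb: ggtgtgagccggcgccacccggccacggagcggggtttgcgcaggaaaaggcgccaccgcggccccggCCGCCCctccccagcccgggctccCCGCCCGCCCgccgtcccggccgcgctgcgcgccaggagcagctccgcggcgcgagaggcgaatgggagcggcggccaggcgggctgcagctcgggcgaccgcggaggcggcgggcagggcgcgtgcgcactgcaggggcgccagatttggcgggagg
Cebpb: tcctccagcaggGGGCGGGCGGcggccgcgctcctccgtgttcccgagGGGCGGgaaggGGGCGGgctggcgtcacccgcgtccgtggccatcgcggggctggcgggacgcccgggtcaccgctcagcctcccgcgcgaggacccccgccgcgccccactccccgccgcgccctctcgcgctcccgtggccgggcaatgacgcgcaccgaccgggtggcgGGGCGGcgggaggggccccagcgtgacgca

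In the Cebpa window the capitals mark TATAAA, 30 to 25 bases before the start. In Myb and Cebpb they mark GGGCGG, the GC box, which was found 3 times in Myb, each time on the opposite strand as CCGCCC, and 5 times in Cebpb, with overlaps in both. The bases G and C made up 66.4% of the window of Cebpa, 81.2% of that of Myb and 81.6% of that of Cebpb, against a median of 52.4% over 32851 promoter windows. Of all windows, 12.4% held TATAAA and 32.7% held GGGCGG on either strand. The other motifs searched on both strands were CCAAT (33.8% of all windows), CACGTG (6.02%), TTGCNNCAA (1.74%), GAGGAAGT (2.44%), TGTGGT (14.0%), AACTGNC (10.6%) and AAATCNNTG (2.61%), and none of these letters was in the 3 windows shown. Among the other matched genes, the window of Klf4 held 4 GGGCGG and 1 CACGTG, that of Runx1 held 1 CACGTG and 2 CCAAT, and that of Gfi1, whose RefSeq start lies 231 bases from the gene's 5′ end in the authors' table, held none of the 9. A match to letters is a description of the sequence and was not tied to binding of any factor.

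The knockout was first checked on its target. Grn was at 168, 161 and 166 FPKM in the WT libraries and at 0.242, 0.206 and 0.747 FPKM in the PGRN KO libraries, as the labels say. The libraries held between 17087344 and 18821091 fragments on genes, recovered from FPKM, gene length and an inferred library size. The library sizes the authors divided by lower PGRN KO values by 0.12 on the log2 scale compared with plain totals of fragments. Genotypes were compared with limma on log2(FPKM + 1), a scale that understates the change of genes at low FPKM, and a gene was called at an adjusted p under 0.05 over all 14807 genes tested. By this rule 7.94% of all genes tested were called higher in PGRN KO and 9.95% lower (1175 and 1473 genes). With plain totals 2149 genes were called higher and 934 lower.

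Against that background, 3 of the 10 factors were called higher and 1 lower. Among the 719 tested genes with a family name in the authors' transcription factor column, 3.48% were called higher and 11.0% lower. All 3 PGRN KO libraries lay above all 3 WT libraries for 4 of the 10 factors (Cebpd, Cebpe, Gfi1 and Myb), as they did for 18.1% of all genes tested. They lay below them for 1 factor, Cebpa, as for 19.6% of all genes. The median log2 fold change was 0.092 over the 10 factors and 0.0026 over all genes tested, with 5 factors above 0 and 5 below. With 10 genes chosen by name, these counts describe the set and were not tested against the background.

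**Figure D1:**
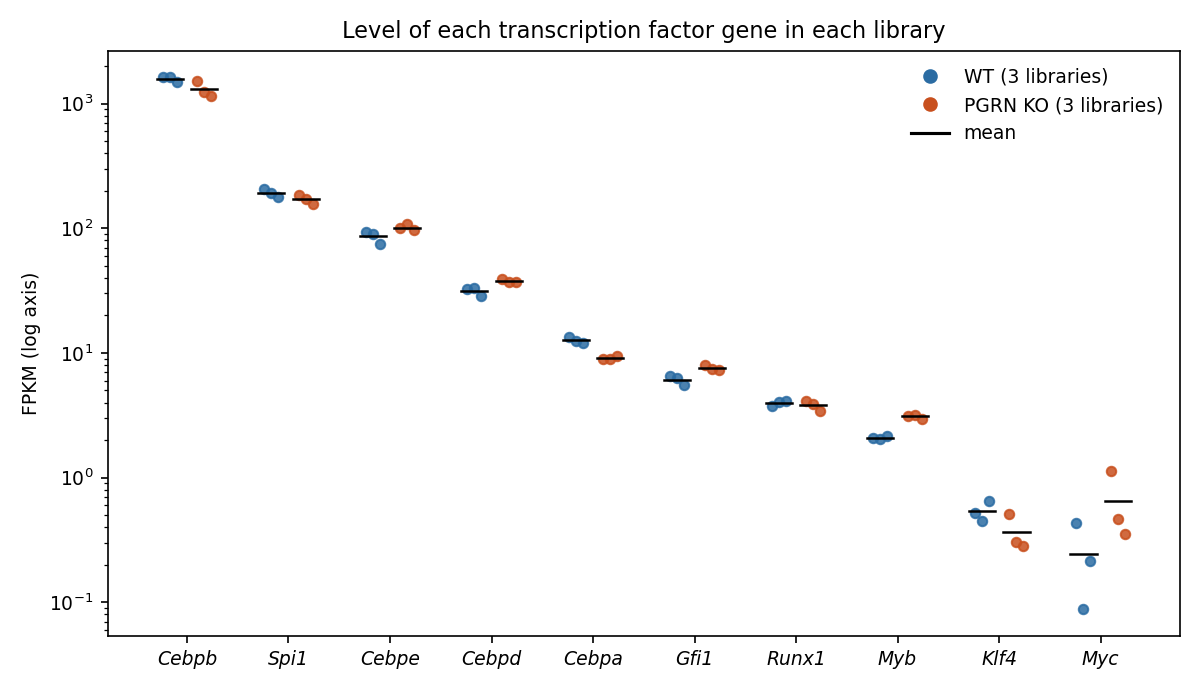
Level of each of the 10 genes in FPKM (log axis) in each of the 3 WT and 3 PGRN KO libraries, with points for libraries and black lines for group means. The genes run from Cebpb at the top (mean of 1578 FPKM in WT) down to Klf4 and Myc, and the PGRN KO points lie apart from the WT points for Cebpe, Cebpd, Cebpa, Gfi1 and Myb.

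The order of the levels was Cebpb, Spi1, Cebpe, Cebpd, Cebpa, Gfi1, Runx1 and Myb in both genotypes. Only Klf4 and Myc changed places, with Klf4 above Myc in WT and Myc above Klf4 in PGRN KO. Neighbours in this order had separate ranges over their 3 libraries in each genotype, except Myc and Klf4 in PGRN KO, which overlapped. Among the genes of the transcription factor column, ranked by mean FPKM over the 6 libraries, Cebpb stood at rank 1, Spi1 at rank 10, Cebpe at rank 22 and Cebpa at rank 141. Lower down came Gfi1 at rank 201, Runx1 at rank 283, Myb at rank 339, Klf4 at rank 561 and Myc at rank 563, and the authors' column gave no family for Cebpd.

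Cebpa (ENSMUSG00000034957, chromosome 7 from 35119293 to 35121928) encodes C/EBPα, which commits progenitors to the granulocyte and monocyte lineage and restrains their division. Its level was 13.4, 12.4 and 12.1 FPKM in the WT libraries and 8.93, 8.96 and 9.50 FPKM in the PGRN KO libraries. Every PGRN KO library was below every WT library, and the gap between the groups was wider than either group's own range. WT libraries averaged 12.6 ± 0.672 FPKM (SD, n = 3) and PGRN KO libraries 9.13 ± 0.319 FPKM (SD, n = 3). On the log2 scale Cebpa fell by 0.43 (standard error 0.056, adjusted p = 0.0043 from limma), resting on 1690 WT and 1341 PGRN KO fragments. It was called lower under all 16 alternatives, with log2 fold changes between -0.46 and -0.32.

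Cebpb (ENSMUSG00000056501, chromosome 2 from 167688915 to 167690418) encodes C/EBPβ, the factor of emergency granulopoiesis and of cytokine genes in stimulated myeloid cells. Its level was 1623, 1621 and 1491 FPKM in WT and 1517, 1241 and 1145 FPKM in PGRN KO. The groups overlapped, because PGRN KO replicate 4 lay above WT replicate 3, while the other PGRN KO libraries lay below all WT libraries. The log2 fold change was -0.29, with a 95% interval from -0.54 to -0.038 and an adjusted p of 0.110 from limma. This call turned on 1 library: without PGRN KO replicate 4 the log2 fold change was -0.40 and the adjusted p 0.0156, and under the other alternatives Cebpb was not called. With plain totals of fragments and with quantile normalization its log2 fold change was -0.17. The span of Cebpb shares 908 bases with Tmem189 on the opposite strand, which itself fell from 155 to 133 FPKM (log2 fold change -0.22, adjusted p = 0.0404 from limma). The sources used here do not say whether counting used strand, so reads in the shared bases cannot be told apart.

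Cebpd (ENSMUSG00000071637, chromosome 16 from 15887286 to 15891031) encodes C/EBPδ, an acute-phase factor induced by inflammatory signals. Its level was 32.4, 33.2 and 28.8 FPKM in WT and 38.9, 37.1 and 37.4 FPKM in PGRN KO. All PGRN KO libraries were above all WT libraries, with WT replicate 3 the lowest. WT libraries averaged 31.5 ± 2.33 FPKM (SD, n = 3) and PGRN KO libraries 37.8 ± 0.984 FPKM (SD, n = 3). Cebpd rose by 0.26 on the log2 scale (standard error 0.061), and limma gave an adjusted p of 0.0310. The call was lost without any 1 of the 6 libraries, at adjusted p values between 0.0504 and 0.0873, and it held in 8 of 16 alternatives. Its fold change stayed above 0 in all of them, from 0.20 to 0.39. Cebpd shares 1808 bases with Spidr on the opposite strand, which was at 8.21 FPKM in WT and 7.59 FPKM in PGRN KO.

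Cebpe (ENSMUSG00000052435, chromosome 14 from 54710360 to 54712174) encodes C/EBPε, which drives the step from promyelocyte to myelocyte and the secondary granule genes. Its level was 93.6, 89.9 and 75.0 FPKM in WT and 99.8, 107 and 96.0 FPKM in PGRN KO. The groups did not overlap, but WT replicate 3 stood well below the other WT libraries. The log2 fold change of 0.23 (standard error 0.090) had an adjusted p of 0.129 from limma and was not called. It was called under 3 of 16 alternatives (plain totals of fragments, quantile normalization and limma voom on the recovered fragments).

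Set against each other within the same library, the 4 C/EBP genes made up different shares of their sum. Cebpb made up 92.4% ± 0.362 of their summed FPKM in WT, and 89.7% ± 1.26 in PGRN KO (each SD over n = 3). The share of Cebpe was 5.03% ± 0.334 and 7.05% ± 0.923, and that of Cebpd was 1.84% ± 0.0480 and 2.63% ± 0.282. For these 3 genes the ranges of the groups were apart. The share of Cebpa was 0.739% ± 0.0293 in WT and 0.639% ± 0.101 in PGRN KO, with overlapping ranges. These shares add up to 100%, so that a lower share of Cebpb by itself raises the others.

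Gfi1 (ENSMUSG00000029275, chromosome 5 from 107716657 to 107726036) encodes a zinc finger repressor that keeps granulocyte precursors from the monocyte programme. It was at 6.52, 6.26 and 5.51 FPKM in WT and at 7.98, 7.41 and 7.26 FPKM in PGRN KO. No PGRN KO library came down to the WT range. Gfi1 rose by 0.27 on the log2 scale (standard error 0.072, adjusted p = 0.0460 from limma), with 987 fragments behind the WT level and 1338 behind that of PGRN KO. Like Cebpd it lost its call without any 1 of the 6 libraries, at adjusted p values between 0.0627 and 0.116, and it was called in 7 of 16 alternatives with fold changes from 0.21 to 0.43.

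Spi1 (ENSMUSG00000002111, chromosome 2 from 91082390 to 91115756) encodes PU.1, the ETS factor that all myeloid cells need. Its level was 206, 193 and 180 FPKM in WT and 185, 171 and 156 FPKM in PGRN KO. The ranges overlapped, with PGRN KO replicate 4 between the lower WT libraries. The log2 fold change was -0.18, with a 95% interval from -0.36 to 0.0061 (adjusted p = 0.169 from limma). It was -0.057 with plain totals of fragments (adjusted p = 0.651) and -0.058 with voom (adjusted p = 0.547), and no alternative called it.

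Runx1 (ENSMUSG00000022952, chromosome 16 from 92601466 to 92826149), the core binding factor that establishes blood stem cells and acts in myeloid progenitors, was at 3.77, 4.02 and 4.14 FPKM in WT and 4.11, 3.92 and 3.42 FPKM in PGRN KO. The libraries were intermingled. The log2 fold change was -0.049 with a 95% interval from -0.23 to 0.13 (adjusted p = 0.704 from limma), and its sign turned with plain totals (0.047), with voom (0.056) and without PGRN KO replicate 6 (0.011). An antisense gene inside its span, Gm26626, fell from 6.72 to 3.58 FPKM (log2 fold change -0.76, adjusted p = 0.0269 from limma) and shares 7292 bases of that span, which is counted here with introns.

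Myb (ENSMUSG00000019982, chromosome 10 from 21124935 to 21160984) encodes c-Myb, which sustains proliferating progenitors and drives primary granule genes before it is shut off during maturation. It was at 2.09, 2.05 and 2.16 FPKM in WT and at 3.15, 3.17 and 2.98 FPKM in PGRN KO. The libraries of a genotype lay close together and the groups stood far apart. WT libraries averaged 2.10 ± 0.0555 FPKM (SD, n = 3) and PGRN KO libraries 3.10 ± 0.104 FPKM (SD, n = 3). Myb rose by 0.40 on the log2 scale (standard error 0.059), with an adjusted p of 0.0061 from limma, and rested on 952 fragments in the WT group and 1539 in the PGRN KO group. Myb was called higher under all 16 alternatives, with fold changes on the log2 scale between 0.37 and 0.68. The 6 libraries are of bulk RNA, in which more cells that hold Myb and more Myb RNA per cell cannot be told apart, and the same holds for each gene here.

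The genes that overlap the spans of Cebpa, Gfi1 and Myb on the opposite strand were barely measured. Gm45091, which shares 313 bases with Cebpa, was at 0.157 FPKM in WT and 0.111 FPKM in PGRN KO. A430072P03Rik, which shares 880 bases with Gfi1, was at 0.471 and 0.472 FPKM, and Gm26577, which shares 9281 bases with the span of Myb, at 0.225 and 0.274 FPKM. Their adjusted p values from limma ran from 0.698 to 0.969.

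Klf4 and Myc were close to the limit of what this depth measures. Klf4 (ENSMUSG00000003032, chromosome 4 from 55527143 to 55532466), a zinc finger factor of monocyte differentiation, was at 0.521, 0.452 and 0.651 FPKM in WT and 0.515, 0.307 and 0.284 FPKM in PGRN KO, on 17 to 34 fragments per library. Its groups overlapped and its log2 fold change was -0.17 (adjusted p = 0.254 from limma).

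Myc (ENSMUSG00000022346, chromosome 15 from 61985391 to 61990374), which encodes the c-Myc factor of cell growth and division, was at 0.433, 0.0883 and 0.215 FPKM in WT, on 20, 4 and 10 fragments. In PGRN KO it was at 1.13, 0.466 and 0.356 FPKM, on 55, 23 and 19 fragments. PGRN KO replicate 4 was far above the rest, and PGRN KO replicate 6 lay below WT replicate 1. The log2 fold change of 0.39 had a 95% interval from -0.063 to 0.84 (adjusted p = 0.215 from limma). Smaller pseudocounts gave larger fold changes without a call, 0.59 with 0.5 FPKM (adjusted p = 0.203) and 1.11 with 0.1 FPKM (adjusted p = 0.185 from limma). Limma voom on fragments, which differs in pseudocount, scaling and weights at once, gave 1.53 and called it (adjusted p = 0.0245).

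**Figure D2:**
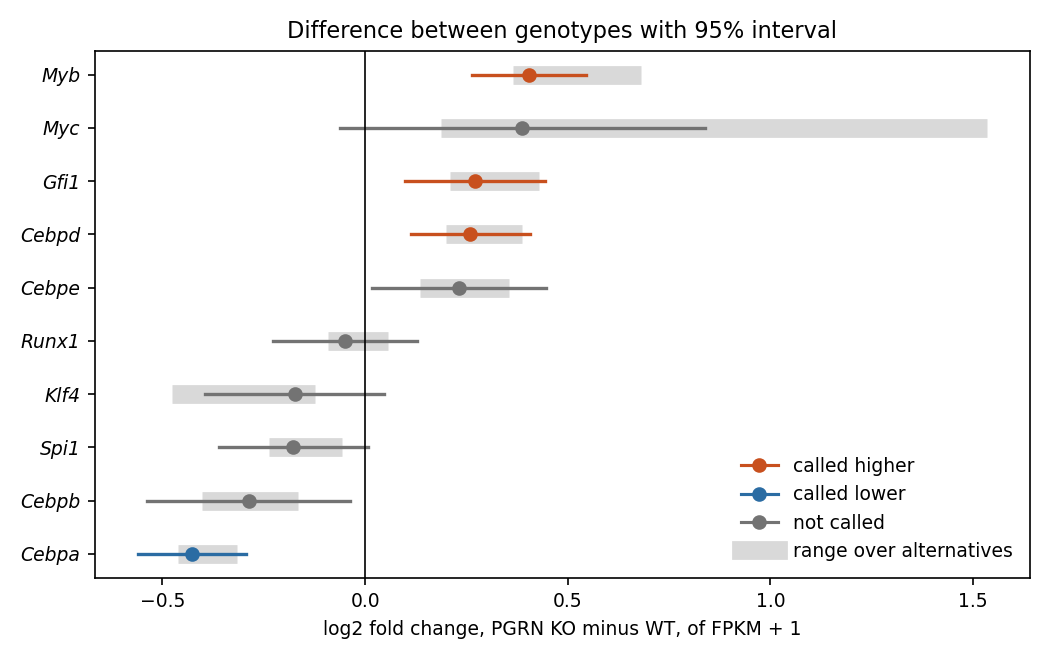
Log2 fold change of each gene between PGRN KO and WT (points) with its 95% interval from limma (lines), and the range over the alternatives as grey bars. The intervals and grey bars of Myb, Cebpa, Cebpb, Cebpd, Cebpe and Gfi1 do not reach 0, though Cebpb and Cebpe were not called. Those of Runx1 cross 0, and the bar of Myc reaches 1.53.

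Ratios within a library do not depend on how libraries were scaled, and 8 of them were compared. With 3 libraries a side, an exact permutation test (two-sided) cannot give a p under 0.1, so none of the 8 could pass 0.05, and the p-values below are adjusted over the 8. Gfi1 to Irf8, the repressor of the monocyte programme against its activator, was 2.06, 2.14 and 1.73 in WT and 3.54, 3.43 and 3.66 in PGRN KO, so that every PGRN KO library was above the WT range. The log2 difference was 0.85 (exact permutation p = 0.1, adjusted 0.16). Irf8, which is no member of the set of 10, itself fell from 3.09 to 2.13 FPKM (log2 fold change -0.39, adjusted p = 0.0108 from limma).

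Myb to Spi1 differed by 0.74 on the log2 scale, Cebpd to Cebpb by 0.55, Cebpe to Cebpb by 0.52 and Spi1 to Cebpa by 0.29. Each of these ratios was higher in PGRN KO with no overlap (exact permutation p = 0.1, adjusted 0.16). How often ratios of other gene pairs separate in this way was not measured, and some of these ratios share Cebpb or Spi1. The ratio of Spi1 to Cebpa was 15.4, 15.6 and 14.9 in WT and 20.7, 19.0 and 16.5 in PGRN KO. Cebpa to Cebpb differed by -0.18 (exact permutation p = 0.4, adjusted 0.4) and Klf4 to Spi1 by -0.41 (exact permutation p = 0.3, adjusted 0.343), both with overlapping libraries. Myc to Mxd1, the activator against the repressor that replaces it as cells mature, differed by 1.71 with overlap (exact permutation p = 0.2, adjusted 0.267).

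**Figure D3:**
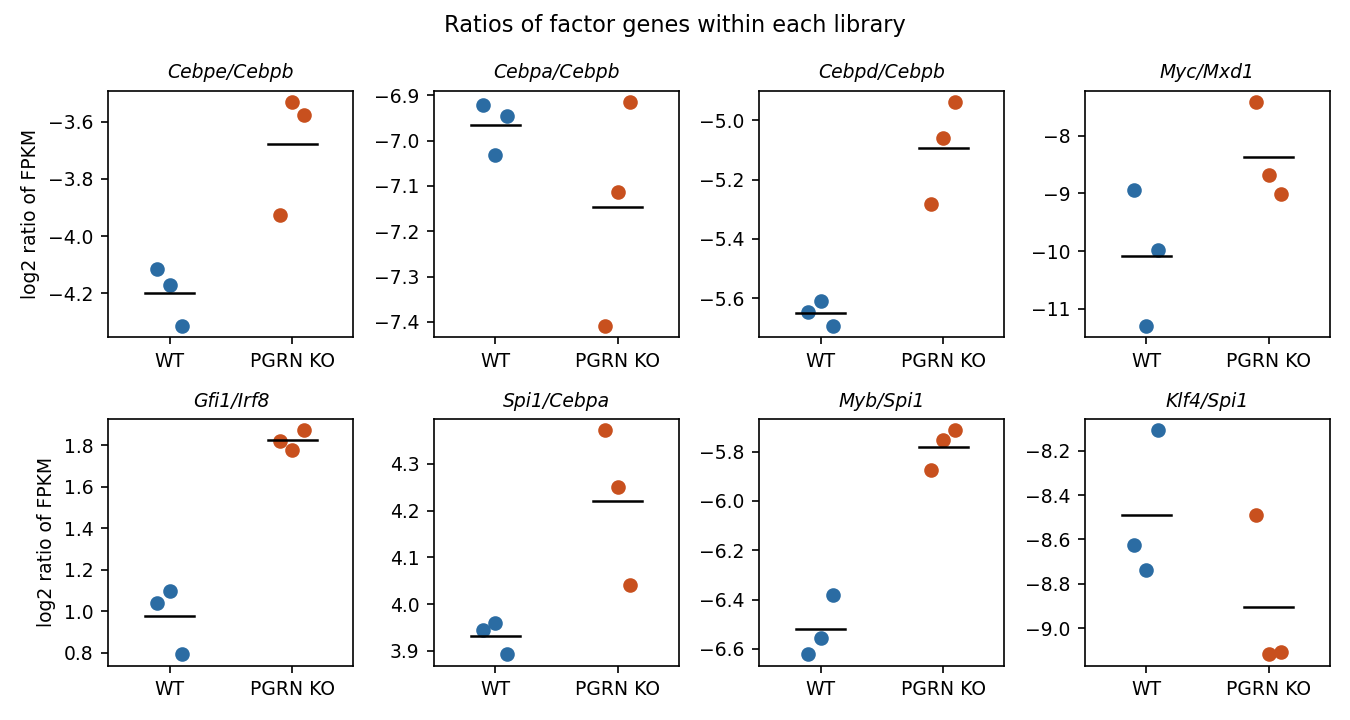
Log2 ratio of the FPKM of paired factor genes in each library, with points for the 3 WT and 3 PGRN KO libraries and lines for means; each panel has its own axis. The PGRN KO points are all above the WT points for Gfi1 to Irf8, Myb to Spi1, Cebpd to Cebpb, Cebpe to Cebpb and Spi1 to Cebpa, and overlap them for the other 3.

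The partners and relatives of the 10 factors were measured as 10 further lists. Together they hold 87 genes, of which 71 were tested, with 4 called higher and 18 lower and a median log2 fold change of -0.10. Among C/EBP partners and regulators, 1 of 5 tested genes was called. This was Trib1, a pseudokinase that marks C/EBPα protein for degradation, which fell from 72.1 to 47.8 FPKM (log2 fold change -0.59, adjusted p = 0.0021 from limma). Its level was 71.3, 71.6 and 73.5 FPKM in WT and 50.8, 49.1 and 43.4 FPKM in PGRN KO, with no overlap.

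Among the ETS relatives of Spi1, 4 of 10 tested genes were called lower and none higher. Spic, a close PU.1 relative known from red pulp macrophages, fell by 1.13 on the log2 scale, from 9.31 to 3.71 FPKM. Ets2 fell from 149 to 97.5 FPKM, Elf2 from 7.09 to 5.43 FPKM and Elf1 from 14.8 to 11.9 FPKM. The list's median log2 fold change was -0.15, close to the value of -0.18 for Spi1.

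The relatives of Myb, Klf4 and Gfi1 gave few calls. Mybl2, the B-Myb gene of cycling cells, rose from 2.38 to 3.61 FPKM (log2 fold change 0.45, adjusted p = 0.0192 from limma) and was the 1 gene of 4 called on the MYB list. Ep300, the most abundant gene of that list and a coactivator bound by c-Myb, was at 10.3 FPKM in WT and 8.91 FPKM in PGRN KO (adjusted p = 0.0648 from limma). Of 10 KLF relatives, Klf10 fell by 0.41 and Klf6 by 0.34 on the log2 scale, the latter from 135 to 107 FPKM. Of 7 tested genes of the Gfi1 list, Hdac1, a histone deacetylase of its repressor complex, rose by 0.26 (adjusted p = 0.0417 from limma). Mybl2 missed the threshold without WT replicate 1 or 3 or PGRN KO replicate 4 or 5 (adjusted p up to 0.0742), and Hdac1 without any 1 library except WT replicate 1 (up to 0.136), with no filter on low values (0.0701) or with eBayes without trend (0.061).

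Of the 9 tested genes of the MYC, MAX and MXD network, Mxd1 alone was called, at 218 FPKM in WT and 190 FPKM in PGRN KO (log2 fold change -0.20, adjusted p = 0.0144 from limma). Its call was lost without WT replicate 2 or PGRN KO replicate 5 (adjusted p up to 0.0702). It was also lost with plain totals of fragments (-0.082, adjusted p = 0.182), voom (-0.083, adjusted p = 0.2) and quantile normalization (-0.12, adjusted p = 0.0577 from limma). No partner or relative of Runx1 was called among 4 tested by limma, and its binding partner Cbfb, the most abundant of them, was at 16.5 and 17.6 FPKM. Of these 4, Runx3 had an unadjusted p under 0.05, and voom called Cbfb, Runx3 and Cbfa2t2. Stem and progenitor factors gave no call among 6 tested, all with fold changes above 0 (not so for Lyl1 without WT replicate 2 or PGRN KO replicate 5), and Lyl1, the most abundant, was at 36.0 and 36.6 FPKM. Lmo2 had an unadjusted p under 0.05, and voom called Lmo2 and Ikzf1. Another 7 of those 13 genes were under the minimum level and not tested, and Mecom was at 0 in all libraries. Of these, Gata2 was at 0.0220 FPKM in WT and 0.161 FPKM in PGRN KO, on 6 and 48 fragments, with no overlap. Gata1 and Hoxa9 were also higher in PGRN KO and Meis1, Sox4 and Ikzf2 lower, all with overlapping libraries.

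The monocyte and macrophage fate factors had the most calls of the 10 lists, where 7 of 9 tested genes were lower in PGRN KO and none was higher, with a median log2 fold change of -0.46. Egr1 and Egr2, zinc finger factors of macrophage differentiation and of immediate early responses, fell from 40.3 to 21.5 FPKM and from 7.75 to 4.13 FPKM. Maf fell by 0.64 on the log2 scale. Nr4a1, the most abundant of them at 278 FPKM in WT and 232 FPKM in PGRN KO, was not called (adjusted p = 0.0913 from limma). Klf4, the member of the 10 with this role, had values in the same direction but no call.

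Factors of late neutrophil stages went both ways, with 4 of 8 tested genes lower and 2 higher. Bcl6 fell by 0.49, Rxra by 0.43 and Stat3 by 0.35 on the log2 scale, and Nfe2 rose from 47.6 to 59.7 FPKM.

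**Figure D4:**
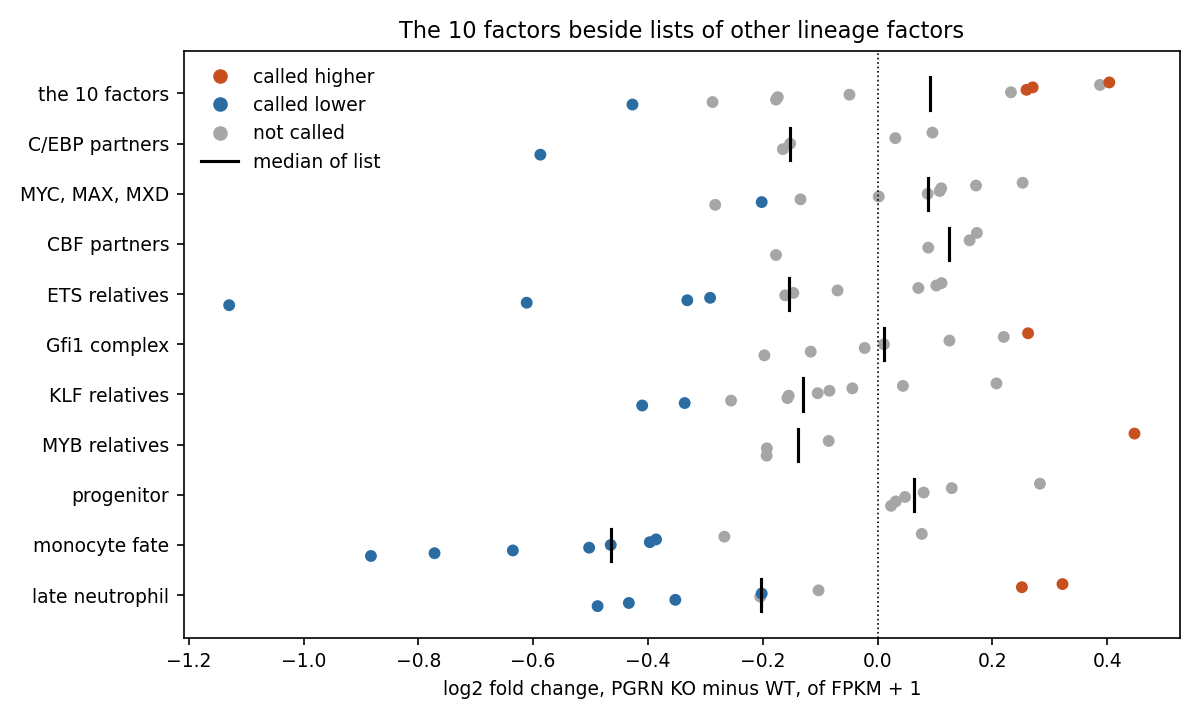
Log2 fold changes between PGRN KO and WT of the tested genes of each list of lineage factors, one point per gene, coloured by whether limma called it, with a black line at each list's median. Called genes of the ETS, KLF and monocyte lists lie left of 0, while the 10 factors lie on both sides with a median of 0.092.

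Known target genes of the 10 factors were then described. The 5 primary granule genes, which Myb, Cebpa, Spi1 and Runx1 activate in promyelocytes, were all called higher, with a median log2 fold change of 2.31. Ctsg, encoding cathepsin G, rose from 13.8 to 105 FPKM, and Elane, encoding neutrophil elastase, from 59.5 to 256 FPKM. Prtn3, encoding another serine protease, rose from 37.6 to 192 FPKM and Mpo, encoding myeloperoxidase, from 11.2 to 59.9 FPKM. These changes were far larger than those of Myb (0.40) or Cebpa (-0.43) on the same log2 scale.

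Of 7 secondary granule targets of Cebpe, 1 was called higher and 1 lower, and the median was 0.046. Cd177 rose from 265 to 310 FPKM and Mmp8 fell from 94.8 to 69.5 FPKM. Cd177 lost its call without PGRN KO replicate 5 (adjusted p = 0.0516 from limma), and Mmp8 without that library or any 1 of the WT libraries (up to 0.119). Mmp8 was also not called with plain totals of fragments (-0.34), quantile normalization (-0.38) or no filter on low values. Ngp, the most abundant, was at 14226 FPKM in WT and 14906 FPKM in PGRN KO without a call.

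Of 6 receptor genes that Cebpa and Spi1 activate, 4 were called lower and none higher, with a median of -0.22. The fold change was below 0 for 5 of the 6. Itgam went the other way, from 64.2 FPKM in WT to 72.6 FPKM in PGRN KO with no overlap, but was not called (adjusted p = 0.0818 from limma). Csf2rb fell by 0.39, Csf2ra by 0.31, Il6ra by 0.28 and Csf3r, the G-CSF receptor gene, by 0.16 on the log2 scale. Of these, Csf2rb alone kept its call when any 1 library was left out. Il6ra lost it without each of the 6 libraries (adjusted p up to 0.114), and Csf2ra and Csf3r without each except PGRN KO replicate 4 (up to 0.0947 and 0.125 from limma). With plain totals of fragments these 3 also missed the threshold, at log2 fold changes of -0.18 for Il6ra, -0.19 for Csf2ra and -0.037 for Csf3r (adjusted p of 0.129, 0.0933 and 0.525 from limma). Csf3r was likewise not called with quantile normalization (-0.058), voom (-0.037) or eBayes without trend, nor Il6ra and Csf2ra with no filter on low values. Among 6 inflammatory targets of Cebpb and Cebpd, Ptgs2 fell from 359 to 231 FPKM and Ptx3 from 1.34 to 0.522 FPKM, while Hp, the most abundant, was at 1482 and 1582 FPKM without a call. Of 17 tested MYC targets of ribosome production and growth, Npm1 rose by 0.31 and Ddx21, Gnl3 and Odc1 fell by 0.41, 0.33 and 0.17, with a median of -0.019. Of these, Ddx21 alone kept its call when any 1 library was left out. With plain totals of fragments Gnl3 (-0.25) and Odc1 (-0.056) were not called, and Npm1 lost its call with no filter on low values and with eBayes without trend.

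Markers of other cells moved with genotype beside these results. Of 6 myeloid progenitor markers, 3 were tested and all 3 (Mki67, Kit and Cdk6) were called higher. The summed level of the 6 genes was 17.0 to 19.8 FPKM in WT and 25.6 to 28.2 FPKM in PGRN KO. Most of this sum came from Mki67, a gene of cycling cells in general, at a mean of 15.3 FPKM in WT and 22.2 FPKM in PGRN KO. Cd34, Cd27 and Flt3 were under the minimum level and not tested. They went both ways, with Flt3 lower in PGRN KO (0.0989 to 0.0382 FPKM). Cd34 (0.0351 to 0.0800 FPKM) and Cd27 (0.0421 to 0.129 FPKM) were higher there. Mki67 kept its call when any 1 library was left out, and Kit and Cdk6 did not (adjusted p up to 0.0854 and 0.0567). Kit also missed it with no filter on low values (adjusted p = 0.0637 from limma). Basophil and mast cell markers summed to 2.01 to 2.44 FPKM in WT and 10.9 to 12.4 FPKM in PGRN KO, with 4 of 5 called higher, Prss34 among them. B and plasma cell markers summed to 23.3 to 25.5 FPKM and 66.9 to 82.2 FPKM, mostly from Jchain, with 3 of 3 tested called higher and Pax5 at 0.

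Other marker lists moved too. Eosinophil markers were called higher in 3 of 4 genes (sums of 1.61 to 2.40 FPKM in WT and 4.88 to 8.41 FPKM in PGRN KO) and erythroid and platelet markers in 3 of 4 tested (1.62 to 3.02 FPKM and 5.94 to 6.69 FPKM). Dendritic cell markers were called lower in 2 of 3 tested (86.3 to 92.4 FPKM and 60.7 to 69.0 FPKM), mostly from Cd74. Of 7 tested monocyte markers, Ccr2 and F13a1 fell and Ly6c2 rose, with sums of 553 to 558 FPKM and 570 to 723 FPKM. The higher sum came from Ly6c2, and without it the sums were 152 to 157 FPKM in WT and 122 to 142 FPKM in PGRN KO. Of the 7, 5 had fold changes below 0, and the median log2 fold change was -0.15. T and NK cell markers stayed at or below 0.779 FPKM in sum, with Cd3e at 0 in all libraries. The part of these cells in the levels of the 10 factors was not tested.

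The neutrophil identity of the libraries was plain in both genotypes. S100a9 was at 31333 FPKM in WT and 36371 FPKM in PGRN KO, and Ly6g at 49.9 and 45.6 FPKM, both without a call. Of 7 neutrophil markers Mmp9 was called higher and Csf3r lower.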

How the data were processed

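RNA was sequenced from 6 neutrophil libraries, grouped by the genotype label (3 WT, 3 PGRN KO), and none was left out. The authors filtered the reads, mapped them and deposited FPKM values. For these steps the submitters' processing notes name CASAVA, HISAT2 2.0.5, featureCounts 1.5.0-p3, DESeq2 1.20.0 and GRCm38 (mm10), and the study's methods name other versions and HTSeq. The FPKM values times gene length and a library size inferred for each library came out within 0.05 of whole fragments. The authors used DESeq2, which needs counts. Here limma 3.58.1 in R 4.3.3 (lmFit, eBayes with trend) was run on log2(FPKM + 1) over genes averaging 0.1 FPKM or more, two-sided, with Benjamini-Hochberg adjustment. Values were read with Python 3.11.15, pandas 2.3.3 and scipy 1.17.1, and figures drawn with matplotlib 3.10.9.

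The 10 genes and all lists were chosen with earlier results of these data known. The text names all 10, for each list the called genes (up to 4 by size of change) and the most abundant gene, Grn, and genes overlapping a member. Some called genes past that rule are named in the marker lists, and 1 gene that the rule covers is not reported here. On simulated data for this comparison (10 draws, 200 genes changed in each), the fit recovered 74.3% of changed genes. It recovered 94.3% of those averaging 1 FPKM or more, while 8.63% of the genes it called had not been changed. These percentages were not split by size of change, and recovery at the fold changes of the 10 factors was not tested. Replicates differed by more than sampling noise (chi-square of 2.83 to 11.7 per degree of freedom). Alternatives were other pseudocounts, filters, scalings and variance models, limma voom on recovered fragments and each library left out. Fragment numbers cover counting error only.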

Additional observations from a re-analysis of the deposited data

How the results depend on the processing

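All 10 factors kept the direction of their fold change under the alternatives tried, except Runx1, whose log2 fold change was 0.047 with plain totals of fragments, 0.056 with limma voom and -0.093 to 0.011 when 1 library was left out. Myb and Cebpa were called under all 16. The number of factors called higher was 3. It was 1 with no filter on low values, 1 with eBayes without trend and 1 without any single library, where Cebpd and Gfi1 missed the threshold. It was 4 with plain totals of fragments, which added Cebpe, and 5 with voom, which added Cebpe and Myc. With quantile normalization it was 3, with Cebpe gained (adjusted p = 0.0382) and Gfi1 lost (0.0513). The number called lower, 1, became 2 without PGRN KO replicate 4, which added Cebpb, and was 1 without each of the other libraries. Over all genes, voom called 4238 genes in place of 2648 and moved the median of all genes by 0.12 on the log2 scale, and fits without 1 library called 1322 (without PGRN KO replicate 5) to 2161 (without PGRN KO replicate 4), with 1612, 1335 and 1662 without WT replicates 1, 2 and 3. Of 56 called genes that the naming rule covers besides the 10, 24 missed the threshold under at least 1 alternative. Those of the lists of factors and targets are given with the lists, apart from 1 gene, and the others are Cd79a, Ms4a2, Epx, Siglecf, Hba-a1, Hbb-bs, Pf4, F13a1, Ly6c2 and Mmp9. Of the other genes named, Lyl1 ranged from -0.018 to 0.066 (-0.0056 without WT replicate 2) and Cd3d from -0.23 to 0.018 when 1 library was left out. With a minimum mean of 1 FPKM, Klf4 and Myc could not be tested. No paired analysis was possible because the labels give no pairing of libraries between the genotypes. Precision is limited by 3 libraries per genotype and, for Klf4 and Myc, by at most 55 fragments in any library.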
